A study of Homo sapiens with 6 samples.

Results

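The genes described here encode 7 channel subunits that set the electrical state of the beta cell: the KATP channel subunits KCNJ11 and ABCC8, the inward rectifier KCNJ2, the pacemaker channel HCN4, the ERG-type channels KCNH2 and KCNH6, and the two-pore-domain channel KCNK16. They were chosen by gene symbol, with earlier results of these data known. Of these, 7 of 7 were present among the 16792 genes of the deposited table. RNA was measured in EndoC-βH1 cells (EndoCBH1 in the labels), an immortalised human beta cell line that was derived from fetal pancreas. Cells of the siMNX1 group (3 libraries) had been transfected with siRNA to lower MNX1, a homeobox transcription factor, and cells of the siNT group (3 libraries, genotype WT) with a non-targeting siRNA. All libraries come from this 1 line, and the sources used here do not give the siRNA sequences or the time after transfection. Nothing in the labels says whether the replicates were separate cultures, so the p-values cover nothing beyond the spread of these 6 samples, and that spread may be technical.

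A beta cell at low glucose is held at a negative membrane potential mainly by KATP channels, in which a KCNJ11 pore is gated by the sulphonylurea receptor ABCC8. ATP made from glucose closes these channels, the membrane depolarises, voltage-gated calcium channels open and insulin granules are released. Other potassium channels clamp the resting potential (KCNJ2, KCNK16) or repolarise the membrane after an action potential (KCNH2, KCNH6), whereas HCN channels open on hyperpolarisation and carry an inward current that is raised by cyclic AMP.

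Libraries were checked first. Deposited totals ran from 18406479 to 18704645 normalized counts, and mitochondrial transcripts took 5.39% to 6.81% of siNT and 5.43% to 6.49% of siMNX1 totals. MNX1 itself had 2020 ± 28.1 normalized counts in siNT and 1781 ± 92.4 in siMNX1 (SD, n = 3 each). This difference missed the threshold (log2 fold change -0.18, limma, adjusted p = 0.116), with every siMNX1 library below every siNT library. PERCC1 and SST, the genes named in the title of the study, were higher in every siMNX1 library (log2 fold changes 4.24 and 1.96, limma, adjusted p = 2.47e-06 and 3.97e-06). Of 10 beta cell markers, 10 were measured, with summed levels of 149721 to 156397 in siNT and 159724 to 170668 in siMNX1. Of 5 delta cell markers, 4 were measured, with sums of 1348 to 1404 in siNT and 1959 to 2035 in siMNX1. These 4 did not move one way: SST and HHEX were called higher (HHEX 54.1 ± 10.6 in siNT and 484 ± 24.4 in siMNX1, limma, adjusted p = 9.62e-06), RBP4 was called lower (981 ± 26.8 and 507 ± 54.5, limma, adjusted p = 0.000451), and LEPR was not called. Without SST the sums overlapped, at 1109 to 1197 in siNT and 1097 to 1155 in siMNX1. In bulk RNA a change in the number of cells of a type and a change in RNA per cell cannot be told apart.

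HCN4 and KCNJ2 were higher with MNX1 siRNA, each by about the same factor, while both KATP genes and both ERG genes overlapped between the groups and KCNK16 was slightly lower without passing the threshold. In all, 2 of the 7 genes were called higher and 0 lower by limma at an adjusted p of 0.05, with 1 lower at an unadjusted p under 0.05. Over all genes tested, 1.99% were called higher and 1.33% lower, and 8.56% were lower at an unadjusted p under 0.05. The siMNX1 libraries lay wholly above the siNT libraries for 2 of the 7 genes and wholly below for 1, against 12.0% and 12.1% of all genes. As the 7 genes were chosen with earlier results of these data known, these shares only describe the list and are no test of it. The median log2 fold change was 0.07 over the 7 genes and -0.0004 over all genes.

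**Figure D1:**
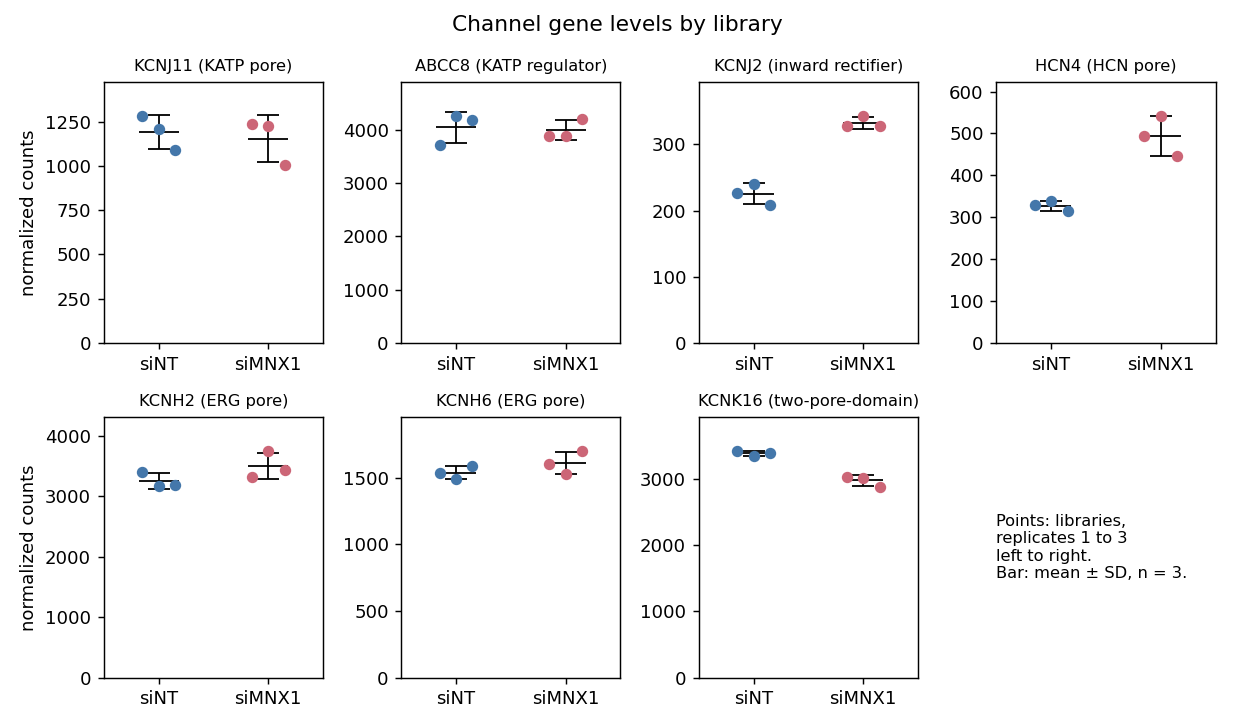
Normalized counts (vertical axes, from 0) of the 7 channel genes in the 3 siNT and 3 siMNX1 libraries, with points for libraries and bars for the mean ± SD. The groups are apart for KCNJ2, HCN4 (both higher in siMNX1) and KCNK16 (lower in siMNX1), and overlap for KCNJ11, ABCC8, KCNH2 and KCNH6.

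The KATP genes come first. KCNJ11 and ABCC8 lie side by side on the minus strand of chromosome 11 (KCNJ11 at 17385859 to 17389331 and ABCC8 at 17392498 to 17476879, GRCh38, GENCODE 29), 3.17 kb apart. Inherited variants in either gene cause neonatal diabetes or congenital hyperinsulinism. For KCNJ11 the siNT libraries (replicates 1, 2 and 3 in this order, here and for the genes that follow) held 1280, 1206 and 1092 normalized counts, and the siMNX1 libraries 1235, 1225 and 1003. Of the siMNX1 libraries, replicates 1 and 2 fell inside the siNT range and replicate 3 lay below it. KCNJ11 had a log2 fold change of -0.05 (95% interval -0.26 to 0.16, limma, adjusted p = 0.822), which as a ratio spans 0.835 to 1.12.

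For ABCC8 the siNT libraries held 3714, 4256 and 4180 normalized counts, and the siMNX1 libraries 3895, 3896 and 4214. All 3 siMNX1 values fell inside the siNT range. Its log2 fold change was -0.02 (95% interval -0.16 to 0.12, limma, adjusted p = 0.924), a ratio between 0.898 and 1.09. With single libraries left out the small differences of both genes changed sign: for KCNJ11 they ran from -0.112 to 0.0479 and for ABCC8 from -0.0769 to 0.0213.

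Because the 2 gene products assemble into 1 channel, their balance was also taken within each library, where scaling cancels. The ratio of ABCC8 to KCNJ11 normalized counts was 2.90, 3.53 and 3.82 in the siNT libraries, and 3.15, 3.18 and 4.20 in the siMNX1 libraries. The libraries of both groups were interleaved. On the log2 scale the ratio was 1.76 ± 0.21 in siNT and 1.80 ± 0.24 in siMNX1 (SD, n = 3 each), a difference of 0.03 (p = 1 by an exact permutation test, two-sided; with 3 libraries a group it cannot go below 0.1).

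KCNJ2 encodes a strong inward rectifier known from heart, skeletal muscle and brain, where it stabilises the resting potential. Its position is chromosome 17, 70168673 to 70180048 (plus strand, GRCh38). For KCNJ2 the siNT libraries held 227, 240 and 209 normalized counts, and the siMNX1 libraries 327, 342 and 327. Every siMNX1 library was above every siNT library, and the siMNX1 libraries lay close together. The means were 225 ± 15.7 and 332 ± 8.80 (SD, n = 3 each), a 1.47-fold difference. In limma, KCNJ2 had a log2 fold change of 0.56 (SE 0.095, 95% interval 0.35 to 0.77, adjusted p = 0.0148). Its call ended without siNT replicate 3 (log2 fold change 0.51, adjusted p = 0.0733) and without siMNX1 replicate 1 (0.57, adjusted p = 0.0515).

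KCNJ2 shares its locus with an antisense transcript, KCNJ2-AS1, which had 36.3 ± 4.93 normalized counts in siNT and 56.5 ± 6.38 in siMNX1 (SD, n = 3 each). Its log2 fold change was 0.63, with the groups apart but without a call (limma, adjusted p = 0.138). How strand was handled is not stated, so reads of the overlapping part cannot be assigned to KCNJ2 or KCNJ2-AS1. On the other side, 33.1 kb before KCNJ2, lies KCNJ16, another inward rectifier gene, with 52.7 ± 6.92 and 64.6 ± 18.6 normalized counts in overlapping groups (limma, adjusted p = 0.604). The nearest tested gene after KCNJ2, LINC01152, is 1850 kb away and had a log2 fold change of -0.35 (limma, adjusted p = 0.614).

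HCN4 encodes the HCN channel best known from the sinoatrial node of the heart, where it contributes to pacemaking. Its position is chromosome 15, 73319859 to 73369264 (minus strand, GRCh38). For HCN4 the siNT libraries held 330, 338 and 315 normalized counts, and the siMNX1 libraries 493, 541 and 447. The groups were separate, and the spread was wider among the siMNX1 libraries. The means were 328 ± 12.0 and 493 ± 47.2 (SD, n = 3 each), a 1.51-fold difference. On the log2 scale the difference for HCN4 was 0.59 (SE 0.093, 95% interval 0.38 to 0.79, limma, adjusted p = 0.0105). Its call ended without siNT replicate 3 (log2 fold change 0.56, adjusted p = 0.0597) and when the variance trend was left out of the model (adjusted p = 0.0522).

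Neither neighbour of HCN4 was called. NEO1, 14.7 kb away on the opposite strand, had a log2 fold change of 0.16 and overlapping groups (limma, adjusted p = 0.308), and NPTN, 191 kb away, had -0.01 (limma, adjusted p = 0.973). Beside HCN4 and KCNJ2, the delta cell markers SST and HHEX were higher and RBP4 lower (values above), and MYL7, the 1 measured gene of 4 heart muscle markers, had 61.3 to 72.8 normalized counts in siNT and 75.5 to 100.3 in siMNX1. MYL7 was not called, and the part of these markers in the HCN4 and KCNJ2 results was not tested.

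Neither of the other HCN genes measured was called, and their differences from HCN4 were not tested. HCN3 had 1217 ± 152 normalized counts in siNT and 1142 ± 66.6 in siMNX1 (log2 fold change -0.09, limma, adjusted p = 0.673), and HCN2 had 390 ± 48.1 and 428 ± 13.7 (log2 fold change 0.14, limma, adjusted p = 0.52). PEX5L, which encodes an HCN accessory protein, had 55.3 ± 8.56 and 57.9 ± 23.4. Levels per kb of the longest coding transcript allow the 3 HCN pores to be set side by side. HCN4 took 10.02%, 9.74% and 8.28% of the summed per-length level of HCN2, HCN3 and HCN4 in the siNT libraries, and 13.3%, 15.5% and 12.2% in the siMNX1 libraries. HCN4 thus stayed the smallest of the 3 per-length levels in both group means, at 45.3 ± 1.67 normalized counts per kb in siNT and 68.3 ± 6.53 in siMNX1, beside 115 ± 14.1 and 126 ± 4.03 for HCN2 and 327 ± 40.8 and 307 ± 17.9 for HCN3.

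Promoter sequences are shown for the 2 genes that were called and, for contrast, for KCNK16, whose values pointed the other way. Each runs from 250 bases before to 50 bases after a RefSeq start site (build GRCh38.p14), written 5′ to 3′ on the strand of the gene. Capitals mark TAAT on either strand, the core that many homeodomain proteins bind, and CANNTG, the E-box bound by basic helix-loop-helix factors. The KCNJ2 window is chr17:70169282-70169581 (plus strand), the HCN4 window chr15:73368909-73369208 (minus strand) and the KCNK16 window chr6:39322919-39323218 (minus strand).
KCNJ2: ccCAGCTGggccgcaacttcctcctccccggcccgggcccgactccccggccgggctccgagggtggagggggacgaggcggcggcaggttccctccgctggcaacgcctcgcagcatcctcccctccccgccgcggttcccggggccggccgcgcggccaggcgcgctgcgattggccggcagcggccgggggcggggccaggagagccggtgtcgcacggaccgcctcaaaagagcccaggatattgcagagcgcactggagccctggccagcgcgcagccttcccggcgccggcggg
HCN4: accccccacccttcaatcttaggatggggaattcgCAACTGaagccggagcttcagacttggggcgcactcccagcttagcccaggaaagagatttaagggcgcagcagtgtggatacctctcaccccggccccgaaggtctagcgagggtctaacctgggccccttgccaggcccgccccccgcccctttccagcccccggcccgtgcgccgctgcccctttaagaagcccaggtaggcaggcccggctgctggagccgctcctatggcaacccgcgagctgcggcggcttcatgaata
KCNK16: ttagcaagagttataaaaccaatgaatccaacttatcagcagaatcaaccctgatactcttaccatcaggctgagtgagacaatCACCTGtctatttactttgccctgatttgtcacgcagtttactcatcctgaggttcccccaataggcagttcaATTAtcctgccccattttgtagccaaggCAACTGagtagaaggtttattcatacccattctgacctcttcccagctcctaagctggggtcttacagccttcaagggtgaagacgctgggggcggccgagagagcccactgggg

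The KCNJ2 and HCN4 windows hold no TAAT and 1 CANNTG each, which begin 248 and 215 bases before the start, with GC contents of 78.0% and 65.0%. The KCNK16 window holds 1 TAAT, 93 bases before the start, and 2 CANNTG, at 166 and 65 bases before it, with a GC content of 48.0%. Another RefSeq start site of KCNK16 has the window chr6:39322653-39322952, which holds no TAAT and 1 CANNTG, with a GC content of 57.7%. The longer TAATTA is in none of these windows. Of 35116 RefSeq promoters of the same length, 50.2% hold TAAT, 4.84% TAATTA and 68.7% CANNTG, so these matches are common letters and only describe the windows. Promoters of 5 of the 7 genes were matched by symbol, with KCNJ11 and ABCC8 the others. Of the ERG genes, neither of them called, KCNH6 has a window with 0 TAAT. Windows at different RefSeq start sites of KCNH2 hold 1, 2, 5, 0 and 0 TAAT, so TAAT did not follow the direction of change across these genes.

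KCNH2 and KCNH6 encode ERG channels, which open slowly on depolarisation and help to end an action potential. Loss of KCNH2 function lengthens the cardiac QT interval. KCNH2 lies at 150944961 to 150978315 on chromosome 7 (minus strand, GRCh38). For KCNH2 the siNT libraries held 3408, 3164 and 3185 normalized counts, and the siMNX1 libraries 3322, 3749 and 3443. Of its siMNX1 libraries, 2 were above the siNT range and replicate 1 was within it. By limma the difference was 0.11 on the log2 scale (95% interval -0.02 to 0.24, adjusted p = 0.374).

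KCNH6 lies at 63523334 to 63548977 on chromosome 17 (plus strand, GRCh38). For KCNH6 the siNT libraries held 1537, 1489 and 1591 normalized counts, and the siMNX1 libraries 1601, 1531 and 1701. The groups overlapped through siMNX1 replicate 2. Its log2 fold change was 0.07 (95% interval -0.07 to 0.20, limma, adjusted p = 0.613). The neighbour ACE, 25.0 kb before KCNH6 on the same strand, encodes angiotensin-converting enzyme and had a log2 fold change of 0.28 with the groups apart, short of the threshold (limma, adjusted p = 0.0552). DCAF7, 1.48 kb after KCNH6, had 0.06 (adjusted p = 0.701). Around KCNH2, AOC1 had a log2 fold change of -0.43 (limma, adjusted p = 0.295) and NOS3 of -0.31 (adjusted p = 0.64), both at low levels of under 60 normalized counts.

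KCNH7, the remaining ERG gene, had 172 ± 11.02 normalized counts in siNT and 247 ± 46.7 in siMNX1 with the groups apart. The difference of 0.51 on the log2 scale was not called (limma, adjusted p = 0.0974). The other measured KCNH genes, KCNH3, KCNH4 and KCNH8, had log2 fold changes of 0.32, -0.43 and 0.05 and no call (limma, adjusted p = 0.362, 0.574 and 0.882).

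KCNK16 encodes TALK-1, a background potassium channel that is activated at alkaline pH and is largely restricted to islets. Its position is chromosome 6, 39314698 to 39322968 (minus strand, GRCh38). For KCNK16 the siNT libraries held 3418, 3345 and 3392 normalized counts, and the siMNX1 libraries 3030, 3019 and 2880. The groups did not overlap, and the spread within each was small. The means were 3385 ± 37.1 and 2976 ± 83.9 (SD, n = 3 each), a change of -12.1%. KCNK16 had a log2 fold change of -0.19 (SE 0.046, 95% interval -0.29 to -0.08) with an unadjusted p of 0.00263, and it did not pass over all genes (limma, adjusted p = 0.0625). It was called under 0 of the 15 other settings tried, with adjusted p from 0.0527 to 0.197.

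Next to it KCNK17, which encodes the related channel TALK-2, begins 0.145 kb beyond the end of KCNK16 on the same strand. KCNK17 had 898 ± 16.8 normalized counts in siNT and 764 ± 28.1 in siMNX1 with the groups apart (log2 fold change -0.23, limma, adjusted p = 0.0817). KIF6, 7.02 kb to the other side, had a log2 fold change of 0.16 in overlapping groups (adjusted p = 0.493). Of the 8 other KCNK genes measured out of 14 listed, 0 were called by limma, and 3 were lower and 0 higher at an unadjusted p under 0.05, against 8.56% and 9.81% of all genes. Besides KCNK17 these were KCNK3, an acid-sensitive background channel gene (643 ± 41.4 in siNT and 506 ± 24.9 in siMNX1, a difference of -0.34 on the log2 scale; limma, adjusted p = 0.0502), and KCNK5 (147 ± 14.6 in siNT and 90.1 ± 17.0 in siMNX1, a difference of -0.71; limma, adjusted p = 0.0517). Both sat just outside the threshold, and KCNK3 was called under 4 and KCNK5 under 3 of the 15 other settings. The other 5 had intervals that included 0: KCNK1 (log2 fold change 0.23), KCNK13 (0.49), KCNK10 (0.08), KCNK6 (-0.33) and KCNK9 (-0.68). Of these, KCNK1 and KCNK13 were higher in every siMNX1 library. Among the 8 genes the groups were thus apart with 3 lower and 2 higher, against 12.1% and 12.0% of all genes.

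**Figure D2:**
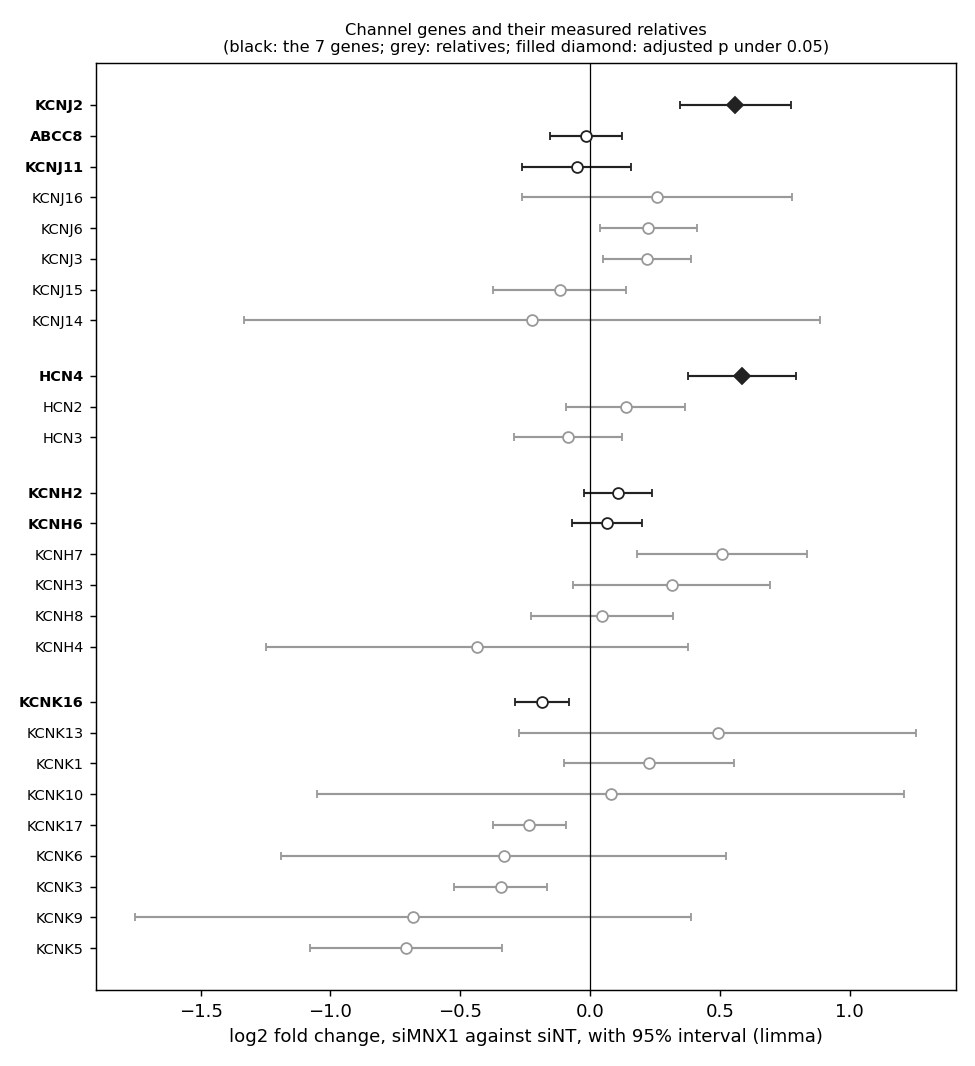
Log2 fold change of siMNX1 against siNT with its 95% interval from limma (horizontal axis) for the 7 channel genes (black) and the measured genes of the same families (grey), by family. HCN4 and KCNJ2 are the filled symbols, past the threshold. Among the open symbols, KCNK16, KCNK17, KCNK3 and KCNK5 have intervals wholly below 0, and KCNH7, KCNJ3 and KCNJ6 wholly above 0.

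Among the other inward rectifiers, 5 of 13 listed genes were measured and 0 were called by limma. KCNJ3 and KCNJ6, which encode channels gated by G proteins, were higher in every siMNX1 library, as were 12.0% of all genes. Their log2 fold changes of 0.22 and 0.23 did not pass (limma, adjusted p = 0.157 and 0.184). KCNJ14, KCNJ15 and KCNJ16 had overlapping groups and log2 fold changes of -0.22, -0.12 and 0.26.

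Across the whole list of other potassium and HCN channel genes with their accessory subunits, 47 of 99 were measured. Limma called 1 higher and 0 lower, against 1.99% and 1.33% of all genes. At an unadjusted p under 0.05, 5 were higher and 6 lower, against 9.81% and 8.56% of all genes, so the list lay near the background. The median log2 fold change was 0.05, beside -0.0004 over all genes. The called gene was DPP10, an accessory subunit of the KCND channels, with 714 ± 30.9 normalized counts in siNT and 913 ± 51.3 in siMNX1, a difference of 0.35 on the log2 scale (limma, adjusted p = 0.0283). Its call was lost with any 1 of the 6 libraries left out (adjusted p from 0.0533 to 0.117). Abundant genes of the list included KCND1, DPP6 and HCN3. KCND1, a pore that DPP10 and DPP6 can associate with, had 2177 ± 188 and 1905 ± 171 (log2 fold change -0.19, limma, adjusted p = 0.242), and DPP6 had a log2 fold change of 0.08.

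Levels were then put on a per-length scale, as normalized counts per kb of the longest coding transcript, to order the genes. KCNK16 ranked 1 of 44 measured channel genes (accessory subunits other than ABCC8 and PEX5L left out). It had 2661 ± 29.1 per kb in siNT and 2340 ± 66.0 in siMNX1, 3.51 times ABCC8 in siNT. ABCC8 (759 ± 55.0 in siNT) and KCNH2 (759 ± 31.5) came next and could not be separated. KCNJ11 (426 ± 33.8) and KCNH6 (403 ± 13.3) followed among the 7 genes, with overlapping libraries. HCN4 (45.3 ± 1.67) and KCNJ2 (41.8 ± 2.91) ranked 19 and 21, also with overlapping libraries, and the gap from KCNH6 to HCN4 was 8.89-fold in siNT and 6.18-fold in siMNX1.

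The per-length order depends on the transcript taken. Over the union of all annotated exons the siNT level of ABCC8 was 322 per kb, below KCNJ11 with 372, KCNH6 with 365 and KCNH2 with 553. The per-length ratio of ABCC8 to KCNJ11, 1.80 ± 0.248 in siNT and 1.84 ± 0.314 in siMNX1, is therefore no stoichiometry. KCNK16 was the highest of the 7 and HCN4 and KCNJ2 the lowest on both scales.

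**Figure D3:**
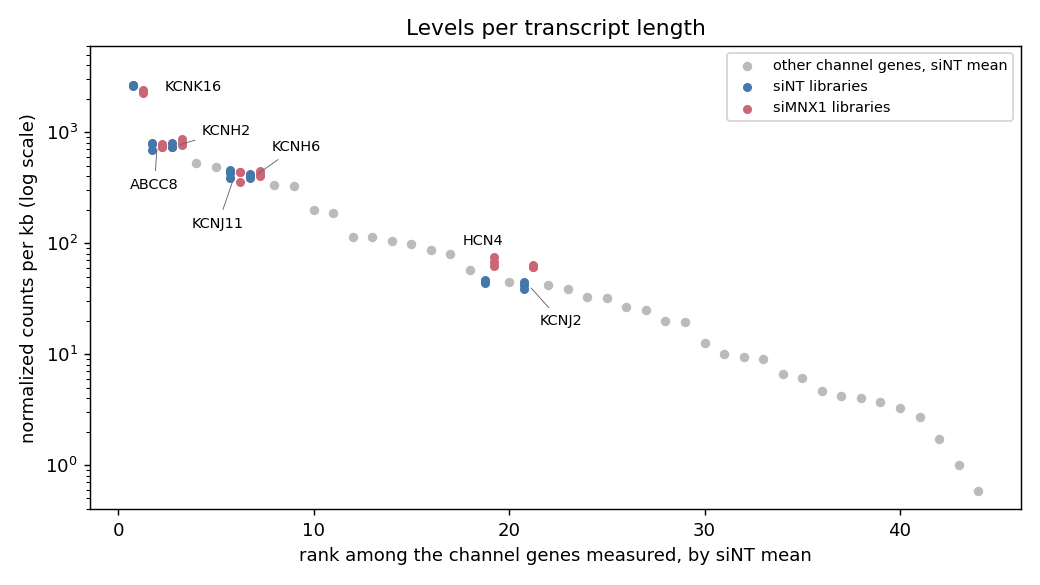
Normalized counts per kb of the longest coding transcript (log axis) against the rank of each of 44 genes by its siNT mean. The 44 are channel genes with ABCC8 and PEX5L. Coloured points are the libraries of the 7 genes and grey points the siNT means of the others. KCNK16 stands above all others, and HCN4 and KCNJ2 lie near the middle of the siNT ranking. The siMNX1 libraries are drawn at the siNT rank.

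The genes with profiles most like the 2 called genes were listed as a description, by Pearson r over the 6 libraries among 12677 other named genes with a mean of at least 50. Such an r mostly follows the difference between the groups, which the 6 libraries share. For HCN4 they were WDFY1 (r = 0.997), C1orf210 (r = 0.997) and the calcium-sensing receptor gene CASR (r = 0.997). CASR differed by a log2 fold change of 0.49 and WDFY1 by 0.34, both called by limma (adjusted p = 0.00183 and 0.0146), while C1orf210 with 0.27 was not (adjusted p = 0.0765). For KCNJ2 they were the fibronectin gene FN1 (r = 0.995), TATDN3 (r = 0.994) and ELMOD2 (r = 0.993), with log2 fold changes of 2.14, 0.34 and 0.17 (limma, adjusted p = 0.000185, 0.043 and 0.126).

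Over the 15 other settings of scaling, filter, pseudocount, variance model, replicate block and left-out libraries, HCN4 and KCNJ2 stayed higher and were each called in 13. The setting without a filter is counted here but only repeats the reported fit, because the filter removed no gene. The log2 fold change ran from 0.52 to 0.66 for HCN4 and from 0.51 to 0.61 for KCNJ2, with adjusted p from 0.00854 to 0.0597 and from 0.0128 to 0.0733. SiNT replicate 3, which had the lowest siNT level of both genes, was the library whose removal ended both calls. Among the left-out settings its removal also gave the fewest calls over all genes (198, against 558 with all 6 libraries). Why the calls ended was not tested.

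**Figure D4:**
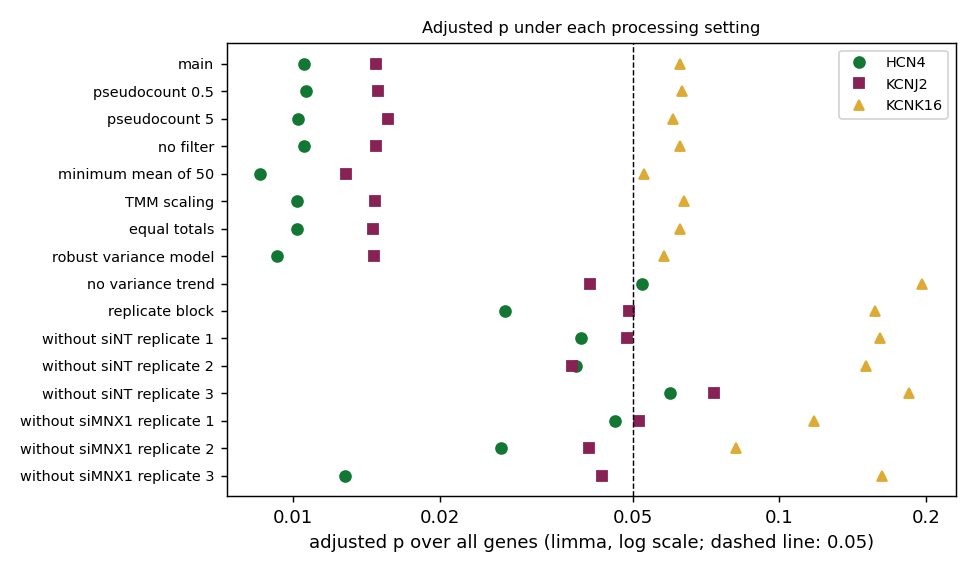
Adjusted p of HCN4, KCNJ2 and KCNK16 (log axis, limma over all genes) in the reported analysis (top row) and under each of the 15 other settings, with a dashed line at 0.05. HCN4 and KCNJ2 lie to the right of the line in 2 rows each (HCN4 without siNT replicate 3 and without the variance trend, KCNJ2 with siNT replicate 3 or siMNX1 replicate 1 left out), and KCNK16 lies to the right in every row.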

How the data were processed

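The authors deposited a table of normalized counts per gene and library (a signal that is never negative, with decimals). GRCh38 is the build, and DESeq, DESeq2 1.26.0, R 3.6.3, RSEM 1.3.1 and STAR 2.7.6a are the software, that the authors list without roles, per the submitters' processing notes. Per the labels' protocols, 5 ng of total RNA went into each library, and ribosomal RNA was depleted. For the annotation, gene filter and strand handling nothing is stated. Only 25.8% to 47.4% of values under 10 lay within 0.02 of a whole multiple of 1 step, so reads were not recovered, depth is unknown and no counting interval or count model was used.

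Groups and replicate numbers came from sample titles. Group was fitted to log2(value + 1) in R 4.3.3 by limma 3.58.1 with a variance trend and Benjamini-Hochberg adjustment over all 16792 genes at 0.05. A minimum mean of 5 removed no gene (lowest mean 6.57), so the setting without a filter is the reported fit again. Fold changes on this scale understate changes of low genes. TMM scaling factors, an alternative, (trimmed mean of M values) were computed from the deposited values by a re-implementation, and tables were made in Python 3.11.15. The fit was also run on simulated data drawn from its own variance model, which cannot show whether that model suits the deposited values. No pair of libraries shared an identical value above 0 in any gene.

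The genes, lists and naming rule were chosen with earlier results of these data known. Named were the 7 genes, called list genes, the 4 most abundant list genes, measured KCNJ, HCN, KCNH and KCNK relatives, tested neighbours (GENCODE 29), and the 3 most similar genes of each called gene. An item that this rule names is not reported here. Marker lists covered islet, acinar, ductal, mesenchymal, endothelial, immune and heart muscle cells.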

Additional observations from a re-analysis of the deposited data

How the results depend on the processing

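Genes called over the whole table numbered 558, 191 without the variance trend, 237 with the replicate block, and 198 to 436 with 1 library left out. Called channel genes numbered 2 of 7, 1 without the variance trend, and 0 to 2 with 1 library left out. Of the other 47 channel genes 1 was called, against 2 with a pseudocount of 5, 3 with a minimum mean of 50, 2 with TMM scaling, 3 with the robust variance model, 0 without the variance trend, 0 with the replicate block and 0 to 3 with 1 library left out. The log2 fold change changed sign for KCNJ11 (range -0.112 to 0.0479) and ABCC8 (range -0.0769 to 0.0213) with 1 library left out. For these moves the cause was not tested, except that the left-out settings have fewer samples. No other direction of the 7 genes reversed.

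Same-numbered libraries did not deviate together (r = -0.01, -0.01 and -0.04 for numbers 1 to 3, across genes), so the numbers were not treated as pairs. With the replicate block HCN4 (adjusted p = 0.0273) and KCNJ2 (0.049) kept their calls. The authors' normalization hides depth, and the wide intervals of genes under 30 normalized counts, such as KCNK9 and KCNJ14, limit what can be said of them.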

Other observations

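On chromosome 6, KCNK5, KCNK17 and KCNK16 lie on the minus strand within 85.2 kb of KCNK16, with no other tested gene between them, a view chosen after the values were seen. Each of the 3 had every siMNX1 library below every siNT library, as had 12.1% of all genes. Their log2 fold changes were -0.71, -0.23 and -0.19 with adjusted p (limma) of 0.0517, 0.0817 and 0.0625, so none was called. The 4 other tested genes within 250 kb had overlapping groups and log2 fold changes of 0.01 to 0.16.

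Outside the families above, and also named after their values were seen, the voltage-gated channel genes KCNC4 and KCNS3 were lower in every siMNX1 library. KCNC4 had 124 ± 12.2 normalized counts in siNT and 74.3 ± 16.4 in siMNX1 (log2 fold change -0.75, limma, adjusted p = 0.0617), and KCNS3 had 802 ± 19.6 and 704 ± 30.1 (-0.19, adjusted p = 0.168). KCNT2, a sodium-activated potassium channel gene, was higher in every siMNX1 library (335 ± 5.16 to 431 ± 85.8, limma, adjusted p = 0.189). None of these passed the threshold. Of the 14 other voltage-gated pore genes measured, 2 lay wholly lower and 0 wholly higher. Over all genes 12.1% lay wholly lower and 12.0% wholly higher, so such separation is common. The ductal marker KRT19 had 1123 to 1291 normalized counts in siNT and 1318 to 1415 in siMNX1, the acinar marker CPA1 541 to 617 and 573 to 592, the immune marker CD68 1352 to 1546 and 1120 to 1377. The 3 measured alpha cell markers of 5 summed to 720 to 985 and 583 to 749, and the 2 measured mesenchymal markers of 3 to 20.3 to 57.1 and 40.0 to 53.7. Of the fixed gamma and endothelial markers, 0 of 1 and 0 of 2 were among the genes tested.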
